A study of Mus musculus with 7 samples.

Results

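The genes described here encode proteins that fold other proteins in the endoplasmic reticulum (ER), with a pair of transcription factors of the unfolded protein response. They are 9 genes chosen by symbol: Hspa5, Hsp90b1, Calr, Canx, Pdia3, Pdia4, Pdia6, Xbp1 and Ddit3, represented by 12 probe sets on the array, out of 8251 genes with probe sets of a single symbol. RNA came from the distal colon of female CD-1 outbred mice aged 10 to 12 weeks at the start. The treated mice had received 6 enemas of the hapten TNBS (trinitrobenzene sulphonic acid, used to provoke colitis) in ethanol and were killed 3 days after the last (the week 6 pool, 6 mice), or 2 weeks (week 8, 4 mice), 4 weeks (week 10, 5 mice) or 6 weeks later (week 12, 4 mice). Saline enemas served as control, with 5 mice in a week 6 pool that was run on 2 arrays, and 4 mice in a later pool, 2 of them killed at week 8 and 2 at week 10. No samples from mice given ethanol alone were analysed here, each group was a single RNA pool, and the week 12 pool had no control of its own age.

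Secretory and membrane proteins enter the ER unfolded. Hspa5 (BiP) binds them through its ATPase cycle, Hsp90b1 (GRP94) acts on a later set of clients, the lectins Calr and Canx hold glycoproteins while Pdia3 forms their disulphide bonds, and Pdia4 and Pdia6 are further disulphide isomerases. When unfolded protein accumulates, the sensors IRE1, PERK and ATF6 start the unfolded protein response. IRE1 splices the mRNA of Xbp1, ATF6 and XBP1 drive chaperone genes, and PERK acts through ATF4 on Ddit3 (CHOP), a factor tied to cell death. Goblet cells, plasma cells and pancreatic acinar cells are known for their large ER.

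ATF6 is known to act on chaperone genes through the ER stress response element (ERSE), written here as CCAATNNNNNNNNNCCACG and searched on both strands. It was looked for in RefSeq windows of the GRCm38.p6 assembly that reach from 250 bases before to 50 bases after a gene's start, and windows were found for all 9 genes. The element was present in 5 of the 9 (Hspa5, Hsp90b1, Calr, Canx and Pdia6), against 39 of all 32851 windows (0.119%), or 0.137% of genes. As the element is known from chaperone genes, its presence here is background and not a result of these data. The stretches that hold it in these 5 genes are shown. Each reads 5′ to 3′ in the direction of the gene, and capitals mark the end parts of the element, CCAAT and CCACG, or their reverse complements.

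Hspa5: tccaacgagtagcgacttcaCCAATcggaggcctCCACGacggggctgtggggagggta
Hsp90b1: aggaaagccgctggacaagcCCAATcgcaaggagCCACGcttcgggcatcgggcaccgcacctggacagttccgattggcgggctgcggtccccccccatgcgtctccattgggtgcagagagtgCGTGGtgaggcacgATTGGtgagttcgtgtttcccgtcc
Pdia6: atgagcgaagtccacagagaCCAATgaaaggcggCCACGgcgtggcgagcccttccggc
Calr: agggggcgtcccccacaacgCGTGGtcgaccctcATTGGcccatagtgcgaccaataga
Canx: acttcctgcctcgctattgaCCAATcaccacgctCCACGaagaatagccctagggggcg

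The Hspa5 stretch lies at chr2:34772005-34772063 on the plus strand, and its element starts 65 bases before the gene's start. The Hsp90b1 stretch (chr10:86705513-86705676, minus strand) holds 2 elements in opposite directions, which start 212 and 107 bases upstream. The Pdia6 stretch lies at chr12:17266471-17266529 on the plus strand, the Calr stretch at chr8:84847055-84847113 and the Canx stretch at chr11:50325780-50325838, both on the minus strand. The windows of Pdia3, Pdia4, Xbp1 and Ddit3 did not hold these letters. With any last base allowed (CCAATNNNNNNNNNCCACN, which includes the exact element), Pdia3 and Pdia4 also matched, so 7 of the 9 did, against 0.365% of all windows, or 0.429% of genes. These stretches lie at chr2:121413853-121413901 (plus strand) and chr6:47813582-47813640 (minus strand).

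Pdia3: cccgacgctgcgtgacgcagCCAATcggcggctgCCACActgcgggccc
Pdia4: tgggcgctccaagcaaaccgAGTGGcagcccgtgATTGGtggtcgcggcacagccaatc

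A match says that the letters are there and not that a factor binds. None of the 9 windows held ERSE-II (ATTGG, any base, CCACG, in 0.0365% of all windows), TGACGTGG (a site bound by XBP1 and ATF6, 0.676%) or ATTGCATCA (an element bound by ATF4 and CHOP, 0.192%).

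Signals are on the authors' linear scale, with each array scaled to a target of 150. The array medians lay between 51.7 and 61.1, so the floor of 50 used here (values under it were set to 50 before taking log2) is close to the middle of each array, and the number of arrays limits the precision. The week 8 TNBS array had the lowest median and correlations of 0.952 to 0.971 with the other arrays across probe sets, while both week 6 saline arrays had r = 0.987. Colon markers were bright on every array, for example Clca1, a goblet cell product, at 6651 or more and Car4, a carbonic anhydrase of the absorptive colonocyte, at 1201 or more.

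Genes reaching at least 100 in their highest pool were kept, which held for 4316 genes in all and for 7 of the 9. The 7 also reached 100 in both saline pools, so none entered through a TNBS pool alone. Calr was not kept: its only probe set read 0.9 to 15.8, under the floor on all 7 arrays, which gives only an upper bound for a gene whose mRNA is usually abundant in secretory tissue. Ddit3, at 55.4 to 88.1, also missed the minimum.

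The TNBS colon at 2 weeks after the last enema had the highest signal of Hspa5, Hsp90b1, Pdia3 and Pdia4. In the week 8 TNBS pool these 4 genes were 1.91-fold to 2.18-fold above the later saline pool, and each was higher there than on any other array of the series. At 4 and 6 weeks 7 of their 8 differences from the later saline pool lay below 0. Xbp1 was highest there by only 1.03-fold over the next array, and Ddit3 was lowest there. The probe sets of Canx disagreed, as did those of Pdia6. In bulk tissue, more cells that make these mRNAs and more mRNA per cell cannot be told apart.

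**Figure D1:**
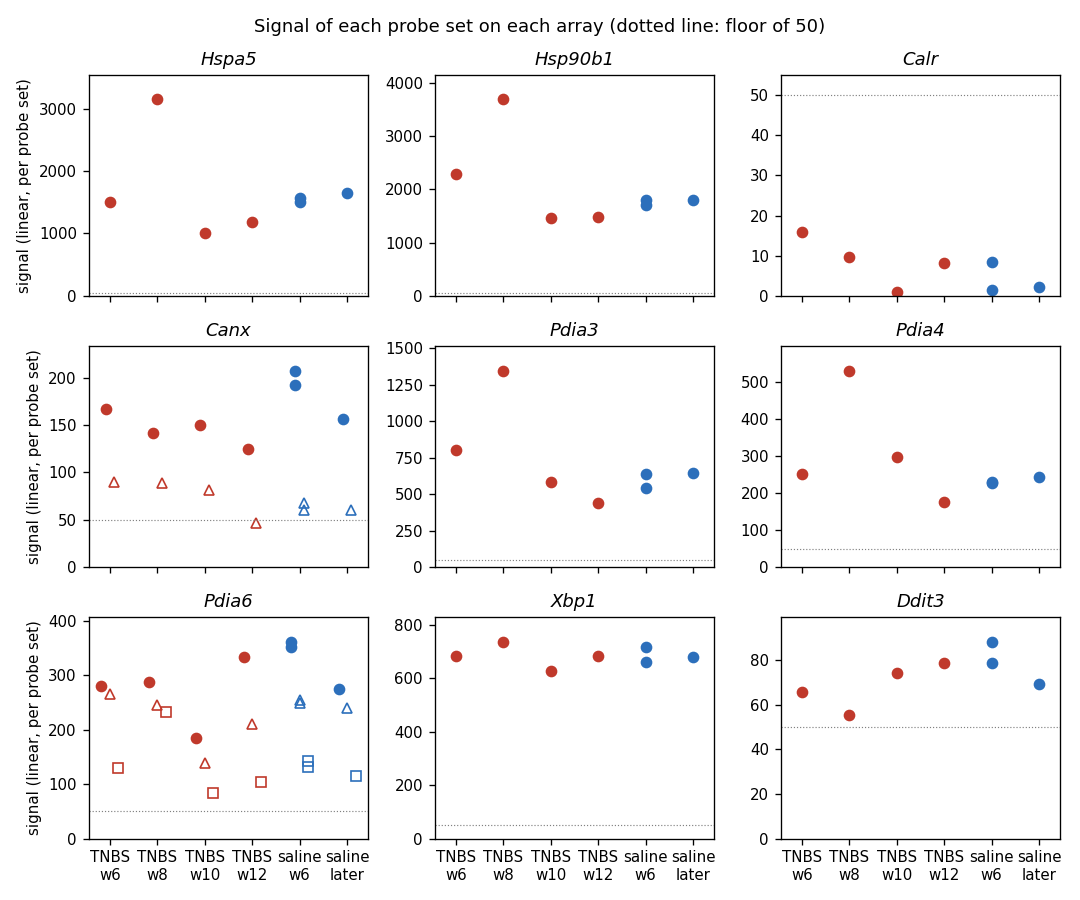
Signal of each probe set of the 9 genes (y axis, linear scale from 0) on each array (x axis), with the TNBS pools of weeks 6, 8, 10 and 12 in red and the saline pools in blue, the week 6 saline pool as 2 points. Filled circles are the probe set of highest mean and open symbols further probe sets; Hspa5, Hsp90b1, Pdia3 and Pdia4 are highest in the week 8 TNBS pool, and Calr lies under the floor of 50 throughout.

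Hspa5 is the ER member of the Hsp70 family and the usual gauge of ER load. It read 1503 in the week 6, 3147 in the week 8, 1014.5 in the week 10 and 1184 in the week 12 TNBS pool, against 1509 and 1574 on the week 6 saline arrays and 1647 in the later saline pool. Week 8 was the high pool, 1.91-fold above the next highest array, and weeks 10 and 12 were below every saline array. The log2 difference from the later saline pool was 0.93 at week 8, -0.70 at week 10 and -0.48 at week 12, and that from the week 6 saline pool was -0.04 at week 6.

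Hsp90b1, the ER member of the Hsp90 family, read 2294, 3684, 1453 and 1478 in the TNBS pools of weeks 6, 8, 10 and 12, against 1711 and 1792 on the week 6 saline arrays and 1797 in the later saline pool. It was 2.05-fold higher at week 8 and 1.31-fold higher at week 6 than in the matched saline pool. At weeks 10 and 12 it was below all saline arrays, by 1.24-fold and 1.22-fold against the later pool.

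The disulphide isomerases Pdia3 and Pdia4 gave the same order at week 8 and parted afterwards. Pdia3, the partner of the lectins, read 805, 1347, 581 and 437.8 in the TNBS pools of weeks 6, 8, 10 and 12, against 544.5 and 636 on the week 6 saline arrays and 647.5 in the later saline pool. This was 1.37-fold higher at week 6, 2.08-fold higher at week 8, 1.11-fold lower at week 10 and 1.48-fold lower at week 12. Pdia4, which has additional thioredoxin-like domains, read 251, 529.6, 298 and 176 in the same TNBS pools, against 226.5 and 228 on the week 6 saline arrays and 243 in the later saline pool. Its difference was 1.10-fold at week 6, 2.18-fold at week 8 and 1.23-fold at week 10, all higher with TNBS, and 1.38-fold lower at week 12.

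Pdia6, a further isomerase that also binds IRE1, had 3 probe sets that did not behave alike. The probe set of highest mean read 280.2, 286, 185 and 333 in the TNBS pools of weeks 6, 8, 10 and 12, against 352 and 361 on the week 6 saline arrays and 274 in the later saline pool. It was 1.05-fold higher at week 8, and the next brightest was 1.02-fold higher. The dimmest probe set read 129.6, 232, 83.8 and 103 in the TNBS pools, against 131 and 142 on the week 6 saline arrays and 115 in the later saline pool. It was 2.01-fold higher at week 8 and highest there, as Hspa5, Hsp90b1, Pdia3 and Pdia4 were. At week 10 the 3 probe sets agreed, being 1.38-fold to 1.74-fold lower.

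Canx, the membrane-bound lectin, had probe sets that did not behave alike. Its brighter probe set read 167, 141.5, 150.0 and 125 in the TNBS pools of weeks 6, 8, 10 and 12, against 207 and 193 on the week 6 saline arrays and 156 in the later saline pool. All 4 differences from the matched saline pool were downward, between 1.04-fold and 1.25-fold, and the later saline pool was itself 1.28-fold below the week 6 saline pool. A dimmer probe set was higher with TNBS at weeks 6, 8 and 10, at 90.2, 89.1, 81.7 and 47.1 with TNBS against 60, 68.1 and 60.8 with saline, so no direction can be given for the gene.

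Neither transcription factor differed 2-fold at any time. Xbp1 mRNA, whose total level on this array does not tell the spliced from the unspliced form, read 680.5, 735, 626 and 682 in the TNBS pools of weeks 6, 8, 10 and 12, against 661 and 717 on the week 6 saline arrays and 678 in the later saline pool. Its 4 log2 differences lay between -0.11 and 0.12. Ddit3 read 65.9, 55.4, 74.1 and 78.7 in the TNBS pools, against 88.1 and 78.9 on the week 6 saline arrays and 69.2 in the later saline pool. Its lowest array was the week 8 TNBS pool, 1.25-fold below the later saline pool, near a signal of 50 where values are imprecise.

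At week 8, 3 of the 7 kept genes were at least 2-fold higher than in the later saline pool, while over all 4316 genes 1.53% passed 2-fold upward and 1.76% downward. With 1 pool on each side this comparison has no test and no replicate check. The median log2 difference was 0.93 over the 7 genes and -0.07 over all genes. From the highest difference downward, Pdia4 was number 49, Pdia3 number 53, Hsp90b1 number 59 and Hspa5 number 79 of 4316. Among the 889 genes that averaged at least 500, which include 4 of the 7, 1.69% were at least 2-fold higher and the median was 0.05. The week 8 pool was the highest of the 6 pools for 5 of the 7 genes, against 19.2% of all genes, though for Xbp1 the margin over the next array was 1.03-fold. For the 7 genes, the 2 hybridisations of the week 6 saline RNA were at most 0.22 apart on the log2 scale, with an SD of 0.10 and none past 2-fold, against 0.371% of all genes upward and 0.348% downward. That spread is technical and says nothing of differences between mice. With quantile normalization the number at least 2-fold higher was 1 of 7 (Pdia4 at 1.10), and Hspa5, Hsp90b1 and Pdia3 had log2 differences of 0.69, 0.78 and 0.95, with 76 of all genes past 2-fold upward and 45 downward, against 66 and 76 without it. With equal array medians the 4 genes were at 1.11 to 1.30, and the median of all genes was 0.11, with 116 past 2-fold upward and 31 downward. Against the week 6 saline pool instead, the 4 genes were at 1.03 to 1.22, Canx at -0.50 and Pdia6 at -0.32.

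**Figure D2:**
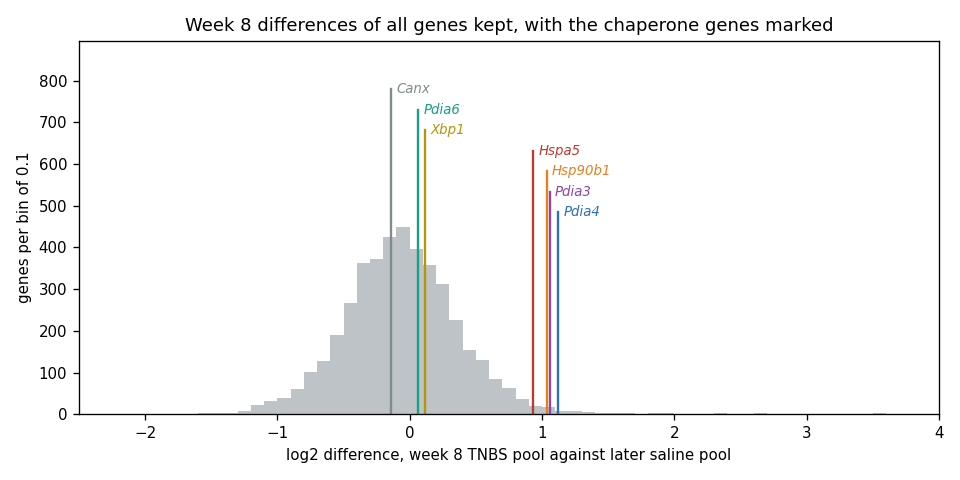
Histogram of the log2 difference between the week 8 TNBS pool and the later saline pool (x axis) over 4316 genes (y axis, genes per bin of 0.1), with a line for each of the 7 kept chaperone genes. Pdia4, Pdia3, Hsp90b1 and Hspa5 lie in the upper tail between 0.93 and 1.12, while Canx, Pdia6 and Xbp1 lie near the middle.

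At the other times none of the 7 genes differed 2-fold in any direction. At week 6, when 2.55% of all genes passed 2-fold upward and 0.996% downward, the 7 genes had a median of -0.02, with Pdia3 (0.45) and Hsp90b1 (0.39) the highest and Pdia6 (-0.35) the lowest. At week 10, 6 of 7 lay below 0, against 50.6% of all genes, with a median of -0.16. The background there was 0.834% upward and 0.649% downward. The week 10 pool was the lowest of the 6 pools for 4 of the 7 genes, against 13.7% of all genes, and weeks 10 and 12 were the lowest pair for 3 of the 7, against 8.29%. At week 12, 5 of 7 lay below 0, against 49.7% of all genes, with a median of -0.32 and a background of 0.718% and 0.880%. The comparisons of weeks 8, 10 and 12 share the later saline pool, so a deviation of that pool would enter all of them. Without TNBS, the later saline pool differed from the week 6 saline pool by a median of 0.04 over the 7 genes, from -0.38 for Pdia6 and -0.36 for Canx to 0.14 for Pdia3, and none passed 2-fold, against 0.857% of all genes upward and 0.950% downward.

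**Figure D3:**
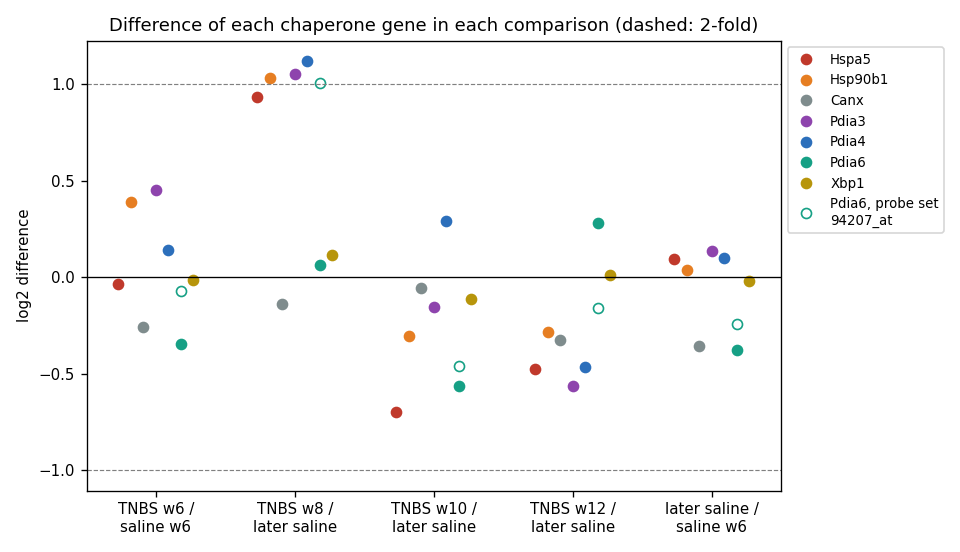
Log2 difference (y axis) of each of the 7 kept genes in the 4 TNBS comparisons and between both saline pools (x axis), with dashed lines at 2-fold and an open circle for the dimmest probe set of Pdia6. Hspa5, Hsp90b1, Pdia3 and Pdia4 lie near or above 1 at week 8 and, apart from Pdia4 at week 10, below 0 at weeks 10 and 12.

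Tests were possible over pools. In limma's fit of the 4 TNBS pools against the 2 saline pools, with the control set (week 6 or later) as a covariate, 0 of the 7 genes and 0 of 4316 genes (0%) had an adjusted p under 0.05, and 221 genes (5.12%) had an unadjusted p under 0.05. The coefficients, with standard errors, were 0.25 ± 0.40 for Pdia3, 0.25 ± 0.38 for Pdia4 and Hsp90b1, -0.06 ± 0.42 for Hspa5 and -0.21 ± 0.18 for Canx, with limma's adjusted p between 0.913 and 0.999 for the 7. These averages put the week 8 peak together with the lower values of weeks 10 and 12, and that change over time is part of the error. Taking the 3 later TNBS pools against the later saline pool gave 0 calls among the 7 and over all genes (0%, with 77 genes or 1.78% at an unadjusted p under 0.05), and limma's adjusted p was 1 for each of the 7. The test of the week 6 effect against the later effect also made 0 calls (0%, with 80 genes or 1.85% at an unadjusted p under 0.05), and the 7 genes had limma's adjusted p of 0.999. A week 8 peak in 1 pool cannot be tested by these fits.

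The list of Hspa5 cofactors came closest to the chaperones at week 8. Of 11 genes on the array 8 were kept, 7 of them lay above 0 at week 8 (42.8% of all genes did), and the median was 0.54, with none at least 2-fold higher. The 7 include Grpel1, at 0.25, which is a cofactor of the mitochondrial Hsp70 and not of Hspa5. Grpel1 was kept only through TNBS pools, that of week 8 among them, so the filter favoured its rise. Dnajb11 (ERdj3), which brings unfolded clients to Hspa5, read 324 in the week 8 TNBS pool and 155 to 185 on the other 6 arrays, 1.96-fold above the later saline pool. Dnajb9 (ERdj4), which promotes degradation and restrains IRE1, was 1.73-fold higher, and Dnajc10 (ERdj5), a reductase, 1.62-fold higher. Creld2, a secreted ER stress gene, was 1.31-fold higher, but its 223 was under both week 6 saline values, 232 and 244.5. Hyou1, the nucleotide exchange factor of Hspa5, read 1.6 or less on every array, so its probe set, like that of Calr, gives no level.

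Among 12 other disulphide enzymes, all kept, 8 lay above 0 at week 8, against 42.8% of all genes, with a median of 0.13. The 8 include Ero1b, which was kept only through its week 8 TNBS value. Agr2, the isomerase that goblet cells use for mucins, was 2.13-fold higher at week 8, with 9523 there and 3265 to 4476 on the other arrays. Prdx4, a peroxiredoxin of the ER, was 1.43-fold higher at week 8 and 1.54-fold higher at week 6. Qsox1, a sulphydryl oxidase, read 100.2 in the week 6 TNBS pool against 169 and 230.5 on the week 6 saline arrays. Tmx1, a membrane-bound thioredoxin, was 1.44-fold lower at week 6 and 1.11-fold higher at week 8. P4hb, the archetypal disulphide isomerase, was 2.36-fold lower at week 12, on a probe set that read 424 and 258.5 on the arrays of 1 saline pool.

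The other lists of the folding and secretion machinery had smaller medians at week 8 than the Hspa5 cofactors. Of 22 translocon, signal peptidase and oligosaccharyltransferase genes kept, 16 lay above 0, against 42.8% of all genes, with a median of 0.28. Ostc, an oligosaccharyltransferase subunit, was 1.75-fold higher, Tram1, at the translocon, 1.31-fold and Srp14, of the signal recognition particle, 1.21-fold higher, while Spcs1, of the signal peptidase, was 1.35-fold lower. Of 19 genes for ER to Golgi transport, 16 lay above 0 (median 0.20) and 12 were highest in the week 8 pool. Over all genes these shares were 42.8% and 19.2%. Kdelr3 and Kdelr2, receptors that return escaped chaperones carrying a KDEL signal to the ER, were 2.07-fold and 1.62-fold higher and the cargo receptor Surf4 1.44-fold higher, while Sec31a, of the COPII coat, was 1.21-fold lower. Kdelr3 read 332 at week 8, against 272 in the week 6 TNBS pool and 122 to 177 on the remaining arrays. Glycoprotein folding genes had a median of 0.06 with 7 of 11 above 0. Those named by coefficient there, Clgn, Ganab, Lman2 and Fkbp2, had week 8 log2 differences between -0.39 and 0.03.

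The genes listed as ER stress sensors and factors lay mostly below 0 in each TNBS comparison, without a test. Of 8 kept, 7 lay below 0 at week 8, against 56.5% of all genes, with a median of -0.27. The 7 include the protease Mbtps1 and Bak1, a cell death protein that is neither sensor nor transcription factor, at -0.03. Xbp1, at 0.12, is not in this list. At weeks 6, 10 and 12 it was 6, 7 and 6 of the 8, with medians of -0.23, -0.22 and -0.15. Ern2, the IRE1 form of gut epithelium and goblet cells, read 121, 75.5, 108 and 203 in the TNBS pools of weeks 6, 8, 10 and 12, against 248.5 and 247 on the week 6 saline arrays and 160.1 in the later saline pool, which was 2.05-fold lower at week 6 and 2.12-fold lower at week 8. Mbtps1, the protease that first cleaves ATF6, was 1.89-fold lower at week 8, and Creb3l1, a related membrane-bound factor, 1.41-fold lower. Nfe2l2 (NRF2) was 1.03-fold lower. Ern1 and the ATF6 and PERK genes add no values, since Ern1 was not analysed here and the others missed the filter, with Atf6 at 58.1 to 84.5 and Eif2ak3 at 60.3 or less.

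Genes listed as targets of the PERK and ATF4 arm showed mixed values. Of 10 kept, 8 lay above 0 at week 8, against 42.8% of all genes, with a median of 0.18 and none past 2-fold. The 8 include Ppp1r15b, the constitutive subunit of the phosphatase that reverses the action of PERK, and not an induced target. It read 775.5 with TNBS at week 8, 1.74-fold above the later saline value of 446. Ppp1r15a, the induced subunit, missed the filter and read 82.4 with TNBS at week 8, against 83.5 with later saline. Asns, asparagine synthetase, was 1.10-fold lower. Cebpb and Psat1 were higher at week 6, by 1.78-fold and 1.99-fold, and 1.12-fold higher at week 8. Psat1 was kept only through its week 6 TNBS value (113, against 30.4 to 83.9 on the other arrays), so the filter favoured that rise. Of 12 genes for degradation of ER proteins, 6 lay above 0 at week 8 (median -0.01). Os9, a lectin that selects misfolded glycoproteins, was 1.52-fold, 1.71-fold and 1.90-fold higher at weeks 8, 10 and 12. Its probe set read 104 and 63.4 on the arrays of the week 6 saline pool. Sel1l, of the ubiquitin ligase complex, was 1.61-fold higher at week 12. Os9 and Sel1l were kept only through TNBS pools, so the filter favoured their rises, and both count among the 6 above 0. Ufd1, of the extraction complex, was 1.59-fold lower at week 8, and Edem2, a mannosidase-like protein, 1.07-fold lower at week 8. No gene in these lists passed limma's adjusted threshold in any of the 3 fits.

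**Figure D4:**
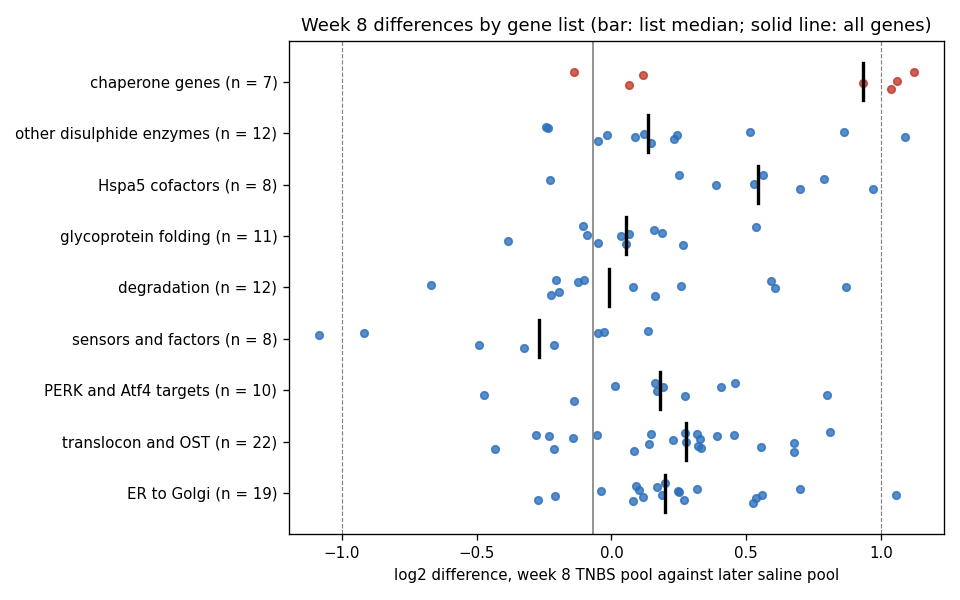
Log2 difference between the week 8 TNBS pool and the later saline pool (x axis) for each kept gene of 9 lists (rows), with a bar at the list's median, a solid line at the median of all genes (-0.07) and dashed lines at 2-fold. The chaperone genes (median 0.93) and the Hspa5 cofactors (0.54) lie highest, and the sensors and factors (-0.27) lowest. The cofactor list includes the mitochondrial Grpel1, and the list of sensors and factors the cell death gene Bak1. OST stands for oligosaccharyltransferase.

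Markers of cell types with a large ER were set beside the chaperones. The summed signal of 7 pancreatic acinar genes was 6302, 8753, 2637 and 2641 in the TNBS pools of weeks 6, 8, 10 and 12, against 2842 and 2355 on the week 6 saline arrays and 2277 in the later saline pool. It was thus highest at week 8, as Hspa5, Hsp90b1, Pdia3 and Pdia4 were. With 6 of 7 genes at least 2-fold higher (1.53% of all genes were), the sum reached 3.84-fold of the later saline pool. It was also 2.43-fold of saline at week 6, where Pdia3 was 1.37-fold, Hsp90b1 1.31-fold and Pdia4 1.10-fold higher and Hspa5 1.03-fold lower. Ctrb1 (chymotrypsinogen) read 1543 and 1789.7 at weeks 6 and 8, against 114 and 188 on the week 6 saline arrays and 276 in the later saline pool, and Clps (colipase) read 506 and 1125 at weeks 6 and 8, against 455 and 592 on the week 6 saline arrays and 313 in the later saline pool. Cela1 (an elastase) was less uneven, at 1876 and 1816 at weeks 6 and 8. It read 1843 and 1602 on the week 6 saline arrays and 1235 in the later saline pool. Cela1 makes up much of the sum elsewhere, with 1235 of 2277 in later saline and 2209 of 2641 at week 12. By gene, the median log2 difference of the 7 from later saline was -0.18 at week 10 and -0.85 at week 12. At week 12, 5 of the 7 lay below 0 and 1 above, against 49.7% of all genes below 0. At week 10, 4 lay below 0 and 2 above, against 50.6%.

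The summed signal of 8 goblet cell genes, Agr2 included, was 37816, 49539.7, 28563 and 24684 in the TNBS pools of weeks 6, 8, 10 and 12, against 47922 and 41004.5 on the week 6 saline arrays and 31314 in the later saline pool. The week 8 sum was 1.58-fold of the later saline pool, and the first week 6 saline array, with Hspa5 at 1509, came near it. At least 2-fold higher at week 8 were 2 of 7 kept genes, against 1.53% of all genes. Tff3, Fcgbp and Clca1, secreted goblet cell products, were 1.46-fold, 1.65-fold and 1.34-fold higher. The week 8 value of Fcgbp, 7788, was under both week 6 saline values, 10519 and 9074. That of Tff3, 7865, lay between its values there, 8863 and 7629, and that of Clca1, 11573, above both, 9650 and 7911. The 7 plasma cell genes summed to 9009 to 12735 with TNBS and 11355 to 14976 with saline, highest on the week 6 saline arrays, with Prdm1 under the floor throughout. Jchain was 1.54-fold and Igha 1.23-fold higher at week 8, and Ighm 1.21-fold lower. Leukocyte genes summed to 3391 in the week 6 TNBS pool, 1902 at week 8 and 1518 to 1576 with saline. At week 8 the sums of absorptive colonocyte, smooth muscle and mucosal mast cell markers were 1.18-fold, 1.17-fold and 4.04-fold of the later saline pool, with the mast cell sum highest at week 6. The part of the acinar, goblet and mast cell markers in the week 8 chaperone values was not tested.

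**Figure D5:**
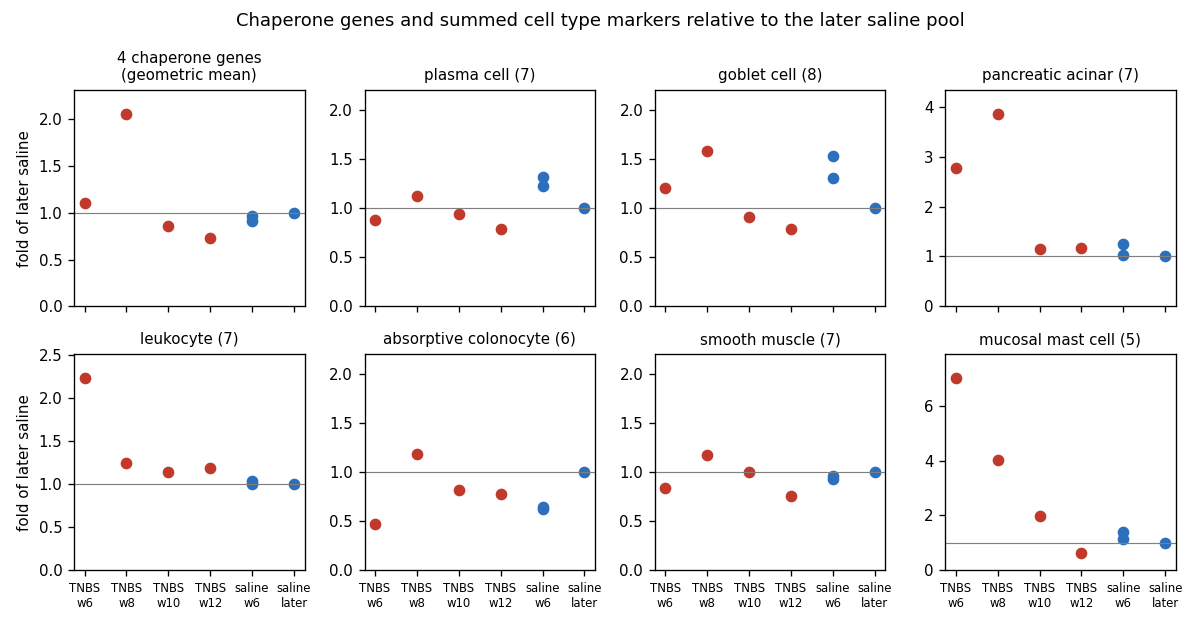
Geometric mean of Hspa5, Hsp90b1, Pdia3 and Pdia4 (first panel) and summed signal of marker genes of 7 cell types (number of genes in brackets), each as a multiple of the later saline pool (y axis, linear), by pool (x axis; TNBS in red, saline in blue, 2 arrays for week 6 saline). The chaperones reach 2.05 at week 8 and lie between 0.733 and 1.10 on the other arrays, while the acinar sum is also higher at week 6 and highest at week 8 (2.77 and 3.84) and the goblet sum is also high in the week 6 saline pool (1.53 and 1.31).

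Across the 6 pools, the genes of the group varied together only in part. As a description over 6 points that share arrays, Pearson's r was 0.940 between Hspa5 and Hsp90b1, 0.967 between Hsp90b1 and Pdia3, and 0.911 between Pdia3 and Pdia4, and the week 8 pool weighs heavily in each. Canx, by its brighter probe set, had r between -0.07 and 0.05 with these 4 genes. Outside the group, the kept genes most like the mean pattern of the 7 were Pex2, a peroxisome assembly factor (r = 0.984), Ywhaq, a 14-3-3 protein (0.982), Ppib (0.979), Fdps of isoprenoid synthesis (0.978) and Clca1 (0.971). Ppib, cyclophilin B, is a proline isomerase of the ER and read 1312 in the week 8 TNBS pool, against 905 in the later saline pool. Most opposed were Gtf2i, a transcription factor, and Cited2, a transcriptional coregulator (both r = -0.99), Miga2, a mitochondrial protein, and Ptpn9, a phosphatase (both -0.98), and Ctsd, a lysosomal protease (-0.98). Cited2 read 219, 153, 303 and 329 in the TNBS pools of weeks 6, 8, 10 and 12, against 237.6 and 242 on the week 6 saline arrays and 242 in the later saline pool.

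The 9 kept genes with the exact promoter element had a median week 8 log2 difference of 0.39, with 6 of them above 0, against -0.07 and 42.8% over all kept genes, and 4 of the 9 belong to the group. The kept genes of the group with an exact element (Hspa5, Hsp90b1, Canx and Pdia6) had a median log2 difference of 0.50, and the 3 without it (Pdia3, Pdia4 and Xbp1) 1.06. That split rests on the exact letters, since Pdia3 and Pdia4 match with any last base, and on the probe set of Pdia6 (0.06, or 1.01 for the dimmest). Outside the group, 5 kept genes held the element. Ero1b, an oxidase that recharges disulphide isomerases, was 1.82-fold higher at week 8, at 105 against 57.7 in the later saline pool. It was kept only through that week 8 value, with 57.7 to 78.1 on the other arrays. The filter thus favoured its rise, which counts among the 6 above 0. Dnajc3 (P58IPK), an inhibitor of PERK and cofactor of Hspa5, was 1.44-fold and Creld2 1.31-fold higher. Pan2, a deadenylase subunit, was 1.81-fold lower and Ptgdr2, a prostaglandin receptor, 1.32-fold lower.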

How the data were processed

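Per the labels, the authors made 1 signal intensity per probe set on a linear scale with Affymetrix MAS5 software and scaled each array to a target of 150, with the RNA of each group's mice pooled. The 2% trimmed mean was 150.1 on every array. The genome build is not given in the sources used here. The deposited table had 12488 probe sets, 66 of them controls. The platform annotation of 2016 gave 1 symbol to 10833, several to 396 and none to 1193, and symbols were updated through Entrez identifiers for 10817. A gene was represented by its probe set of highest mean log2 value, values under 50 were set to 50, both week 6 saline arrays were averaged as log2, and a gene was kept if its highest pool reached 100. Fits used R 4.3.3 and limma 3.58.1 (moderated statistics with a trended prior, two-sided), with Benjamini-Hochberg adjustment over 4316 genes, and 3 residual degrees of freedom, or 2 with separate week 6 and later effects. Nothing shows replicate pools within a group, so the spread behind each p-value is that between pools, and the later fit takes its single saline pool to vary as TNBS pools do. On simulated data for the fit of 4 TNBS pools against 2 saline pools (4316 genes), 23 of 50 genes changed by 1 on the log2 scale and 46 of 50 changed by 2 were called.

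Genes are named by a rule: all 9 of the group, of each pathway list the 4 with the largest coefficient and any that differed 2-fold from matched saline, of each marker list the 3 of highest mean, and the 5 most and 5 least like the mean pattern. Hyou1, Atf6, Eif2ak3, Grpel1, Bak1, Ppp1r15a and the genes with the promoter element outside the group were named after their values were seen. The members and lists were chosen with earlier results of these data known. Promoter windows are RefSeq's.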

Additional observations from a re-analysis of the deposited data

How the results depend on the processing

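No paired analysis was possible because the groups share no replicate numbers beyond the 2 arrays of 1 saline pool. Alternatives changed the floor, the scaling, the probe set rule, the filter, the saline pool or left out an array. The week 8 median over the 7 genes (0.93) was 1.11 with equal array medians and 0.69 with quantile normalization, which left 1 gene at least 2-fold higher. The week 6 median was 0.12 with the mean of probe sets, and the week 10 median -0.019 with equal medians and -0.27 against the week 6 saline pool. Hspa5, Hsp90b1, Pdia3 and Pdia4 lay above 0 at week 8 in all 9 alternatives run for each, at 0.69 or more. Each has 1 probe set, which read above every floor used. A higher or lower floor, no filter and the other probe set rules therefore could not change these values. Only the scalings, an added constant in place of the floor and the other saline pool could. All alternatives use the same single week 8 pool, so the count is no replicate check. Taking Pdia6 by its dimmest probe set, chosen after seeing the data, put it at 1.01 at week 8. Canx at week 8 ranged from -0.50 to 0.21 and Pdia6 from -0.32 to 1.01.

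No alternative called any of the 7 genes in the 3 fits. Over all genes the fit of 4 TNBS pools against 2 saline pools called 17 without the filter, and 0 to 5 when a pool or array was left out (5 without the week 12 TNBS pool). The later fit called 64 with a floor of 100 and 177 without the filter, and the test of week 6 against later effects 187 and 488. The cause was not tested. The MAS5 signals of Calr and Hyou1 lie under the floor on every array and can show no change, and Ddit3 lies near enough to it that a fall of 2-fold could not be seen in full.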
